A study of Mus musculus with 3 samples.

Results

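Matrix proteases and their inhibitors were followed on 3 arrays of NIH3T3 cells, an immortalised line of mouse embryonic fibroblasts. The group holds 9 genes, which are the matrix metalloproteinases (MMPs) Mmp2, Mmp3, Mmp9, Mmp13 and Mmp14, the tissue inhibitors of metalloproteinases (TIMPs) Timp1, Timp2 and Timp3, and the cysteine protease cathepsin K (Ctsk). Members were taken by gene symbol, and every probe set annotated with that symbol alone was used, which gave 21 probe sets of 9 among 18193 genes so represented. The 2 control arrays, empty vector 1 and empty vector 2, held cells with the vector and no hairpin, which are labelled as untreated and were grown in DMEM with calf serum. The third array, RetSat shRNA, held cells with a short hairpin RNA against retinol saturase, labelled as highly resistant to t-BHP, an organic peroxide. The sources used here do not say how the RetSat shRNA cells were grown or treated, or whether they were 1 clone. Nothing in the labels names the cultures behind the control arrays, so the p-values rest on a spread between arrays that may be technical.

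MMPs are zinc enzymes that are made as inactive precursors and cut collagens, gelatin and other matrix proteins outside the cell. TIMPs bind the active site and block it, and TIMP2 also has the opposite role, since it holds the precursor of MMP2 at the cell surface where the membrane-bound MMP14 can activate it. Fibroblasts are known as a main source of MMP2, MMP14 and the TIMPs, and they make the collagenase MMP13, the stromelysin MMP3 and the gelatinase MMP9 mostly after stimulation by growth factors or cytokines through AP-1, a dimer of FOS and JUN proteins. Cathepsin K degrades collagen at acid pH and is best known from osteoclasts.

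The promoters of Mmp3 and Mmp13 are shown because both carry the AP-1 motif. Those of Mmp14, Timp2 and Timp3 are shown as examples that carry the GC box instead. The brightest probe set of each of these genes was bright on every array. Timp1 shares both traits and is not shown. RefSeq promoter sequences of mouse build GRCm38.p6 were matched for 7 of the 9 members, all but Mmp2 and Mmp9. Each line gives the 150 bases before the annotated start, written 5′ to 3′ on the gene's strand, with motif letters in capitals. The windows lie at chr9:7445672-7445821 (+) for Mmp3, chr9:7272364-7272513 (+) for Mmp13, chr14:54431448-54431597 (+) for Mmp14, chr11:118355412-118355561 (-) for Timp2 and chr10:86300262-86300411 (+) for Timp3.
Mmp3: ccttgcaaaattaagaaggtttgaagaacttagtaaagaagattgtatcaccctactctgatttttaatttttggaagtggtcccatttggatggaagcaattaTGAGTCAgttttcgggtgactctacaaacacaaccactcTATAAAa
Mmp13: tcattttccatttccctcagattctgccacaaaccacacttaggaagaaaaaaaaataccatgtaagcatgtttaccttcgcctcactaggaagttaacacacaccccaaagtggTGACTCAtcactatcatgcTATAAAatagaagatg
Mmp14: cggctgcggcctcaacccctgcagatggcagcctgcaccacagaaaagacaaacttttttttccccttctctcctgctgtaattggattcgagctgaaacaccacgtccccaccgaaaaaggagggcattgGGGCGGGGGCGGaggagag
Timp2: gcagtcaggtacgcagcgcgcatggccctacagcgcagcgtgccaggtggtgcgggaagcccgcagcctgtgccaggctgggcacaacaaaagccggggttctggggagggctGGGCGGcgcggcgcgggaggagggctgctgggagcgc
Timp3: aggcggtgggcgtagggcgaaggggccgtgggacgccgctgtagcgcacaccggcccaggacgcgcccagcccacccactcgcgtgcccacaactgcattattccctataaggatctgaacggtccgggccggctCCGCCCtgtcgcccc

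Over the 250 bases before the start, the AP-1 motif (TGAGTCA or its reverse complement TGACTCA) was found in Mmp3 and Mmp13, at 2 of the 7 members and in 4.46% of all 32851 promoter windows of that length. Its first base lay at -46 in Mmp3 and at -35 in Mmp13, counted from the annotated start. The same 2 members carried the TATA box (TATAAA, gene strand only), which 7.59% of all windows held. The GC box (GGGCGG on either strand) was found in Mmp14, Timp1, Timp2 and Timp3 and in 32.7% of all windows, and Mmp14 had 2 copies side by side. No match overlapped another. The Ctsk window held none of the 3 motifs. A match is a run of letters and not a measured binding site.

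The deposited values are signals per probe set in arbitrary linear units. A probe set's brightness depends on its own sequence, so signals are compared here between arrays and never between genes, and the members are given no order of level. In bulk RNA, fewer cells making a transcript and less transcript per cell cannot be told apart. The median signal over all probe sets was 39.4 on empty vector 1, 37.9 on empty vector 2 and 35.7 on RetSat shRNA, and no detection calls were used, so probe sets under these medians are called dim. Retsat itself read 415.9 and 495.9 on the control arrays and 69.5 on RetSat shRNA, in the direction of the array's label. Empty vector 1 stood apart from the close pair of empty vector 2 and RetSat shRNA. The titles of this pair carry the same number, and the labels do not say what it stands for. Whether it marks a shared batch cannot be told. The SD of log2 differences over the 10843 genes tested was 0.739 between the control arrays, 0.754 between RetSat shRNA and empty vector 1, and 0.336 between RetSat shRNA and empty vector 2. Results against each control are therefore given side by side, and both differences share the RetSat shRNA array. The ratio of 3′ to 5′ signal, which rises as RNA degrades, was 1.53, 1.53 and 1.65 for Actb and 0.841, 0.931 and 0.931 for Gapdh in the array order used throughout, which is empty vector 1, then empty vector 2, then RetSat shRNA.

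**Figure D1:**
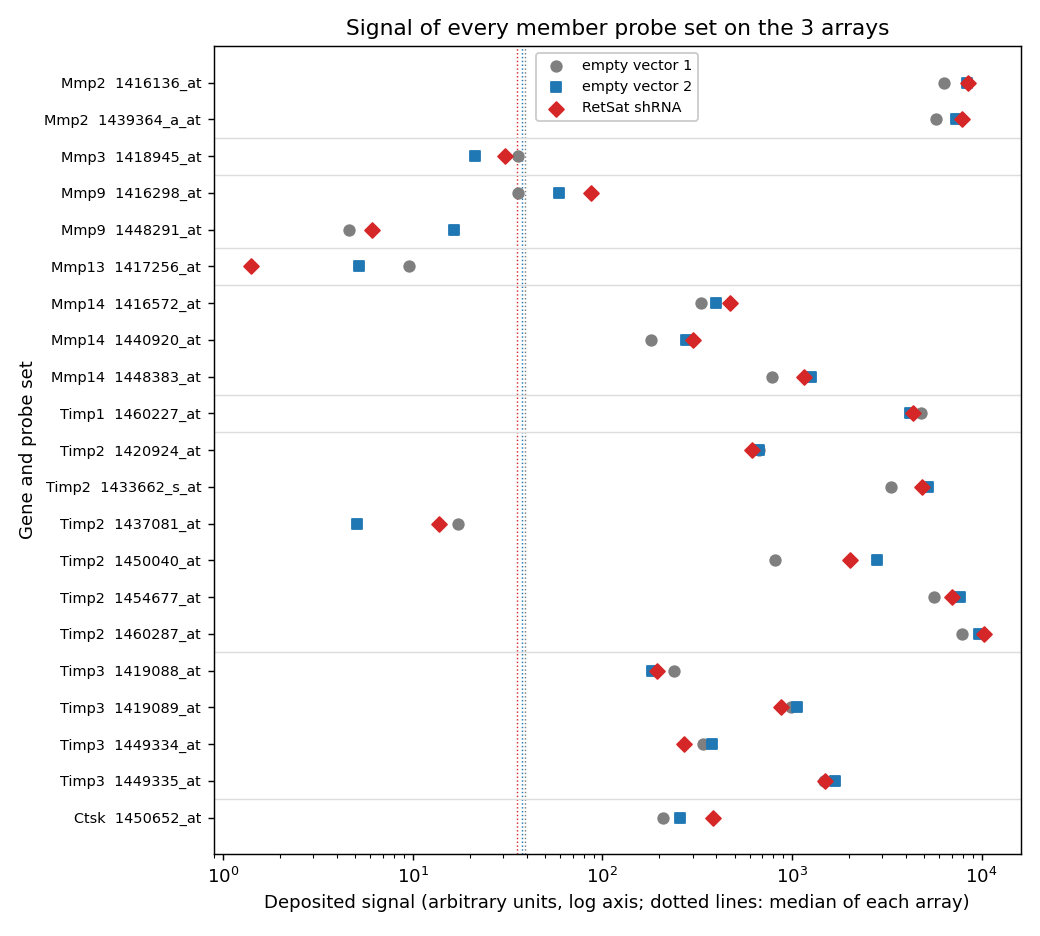
Deposited signal (arbitrary units, log axis) of all 21 member probe sets, with 1 point for each of the 3 arrays and dotted lines at each array's median signal. Mmp3, Mmp13 and 1 probe set each of Mmp9 and Timp2 lie left of the medians on all 3 arrays, whereas both Mmp2 probe sets lie at 5748 or higher on each.

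The gelatinase A gene Mmp2 was bright on all 3 arrays and read almost the same on RetSat shRNA as on empty vector 2. Probe set 1416136_at read 6343 on empty vector 1, 8386 on empty vector 2 and 8431 on RetSat shRNA. The other, 1439364_a_at, read 5748, 7312 and 7879. Empty vector 1 was thus the low array in both, and RetSat shRNA lay above both controls by a margin far smaller than the gap between them. For the first probe set the controls averaged 7364 ± 1444 (SD, n = 2), and RetSat shRNA was 1.33 times empty vector 1 and 1.01 times empty vector 2. On the log2 scale, with an offset of 10.2 added to each signal, the difference from the control mean was 0.21 (SE 0.51, 95% interval -0.92 to 1.34, limma adjusted p = 1).

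Mmp14, the membrane-bound activator of the MMP2 precursor, was also lowest on empty vector 1 in each of its 3 probe sets. The brightest, 1448383_at, read 786.4 on empty vector 1, 1260 on empty vector 2 and 1156 on RetSat shRNA. The probe set 1416572_at read 330.0, 399.1 and 470.6, and 1440920_at read 180.5, 278.0 and 300.3. RetSat shRNA lay between the controls in the brightest probe set and above both in the other 2, so its direction against empty vector 2 depended on the probe set, with log2 differences of -0.12, 0.23 and 0.11. The difference of the brightest from the control mean was 0.21 (SE 0.53, limma adjusted p = 1).

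Of the inducible members, Mmp3 and Mmp13 were dim. Stromelysin 1 (Mmp3) read 36.0, 21.3 and 30.9 in the same array order, under the median on every array. Collagenase 3 (Mmp13) read 9.6, 5.2 and 1.4, under the 25th percentile of each array (11.0, 10.2 and 9.3). Neither was tested, because testing was limited to genes at or above the median probe set in mean log2 signal, and their readings are too close to the floor for a fold to be given. Both carry AP-1 and TATA letters in the promoters above. Mmp9, also an inducible member, had no promoter sequence to search, so it cannot be compared with them in this.

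Mmp3 and Mmp13 lie in a row of 10 MMP genes on chromosome 9 with no other protein-coding gene between them in the RefSeq annotation. Every gene of the row with a probe set was dim, and Mmp27 had none used here. The 9 genes with a probe set (Mmp13, Mmp12, Mmp1b, Mmp3, Mmp1a, Mmp10, Mmp8, Mmp20 and Mmp7) had 1 each. All 9 probe sets read under the median on all 3 arrays, and the highest signal among them was the 36.0 of Mmp3 on empty vector 1. None of these genes reached the filter.

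Gelatinase B (Mmp9) gave readings that its 2 probe sets did not share. Probe set 1416298_at read 36.0 on empty vector 1, 59.5 on empty vector 2 and 87.6 on RetSat shRNA, so it was dim on the first array and highest on the last. The other, 1448291_at, read 4.6, 16.5 and 6.1, under the median on every array, with RetSat shRNA between the controls. The brighter probe set passed the filter, and on the log2 scale RetSat shRNA exceeded empty vector 1 by 1.08 and empty vector 2 by 0.49, against 0.59 between the controls. Its difference from the control mean was 0.79 (SE 0.52, 95% interval -0.37 to 1.95, limma adjusted p = 1). With the tested genes cut into 4 classes of equal size by brightness, Mmp9 falls in the dimmest class of 2711 genes, where the SD of log2 differences was 0.864 between the controls and 0.542 between RetSat shRNA and empty vector 2.

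Timp1, a secreted inhibitor of most MMPs, has 1 probe set. It read 4767 on empty vector 1, 4170.0 on empty vector 2 and 4343 on RetSat shRNA. RetSat shRNA lay between the controls, which averaged 4469 ± 422 (SD, n = 2). The log2 difference from the control mean was -0.04 (SE 0.50, limma adjusted p = 1), and it turned to 0.05 when arrays were centred on their medians.

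Timp2, the inhibitor that takes part in activation of the MMP2 precursor, had 6 probe sets that disagreed most about the control arrays. The brightest, 1460287_at, read 7849 on empty vector 1, 9667 on empty vector 2 and 10280.0 on RetSat shRNA. The next, 1454677_at, read 5643, 7680 and 6980, and 1433662_s_at read 3345, 5190.4 and 4882. All 3 were lowest on empty vector 1, and RetSat shRNA exceeded both controls in the brightest alone.

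Probe set 1450040_at of Timp2 read 813.9 on empty vector 1, 2795 on empty vector 2 and 2031 on RetSat shRNA, so the controls differed 3.43-fold. By contrast, 1420924_at read 668.4, 671.9 and 615.3, level between the controls and lowest on RetSat shRNA. The remaining probe set, 1437081_at, was dim at 17.4, 5.1 and 13.8. Across the 5 probe sets above the filter, the log2 difference between the controls spanned a range of 1.76, compared with 0.547 for RetSat shRNA minus empty vector 2. For the brightest the difference from the control mean was 0.24 (SE 0.51, limma adjusted p = 1).

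Timp3, which binds to the matrix and also inhibits ADAM proteases, read lower than or close to the controls on RetSat shRNA. Its brightest probe set, 1449335_at, read 1470 on empty vector 1, 1684 on empty vector 2 and 1498 on RetSat shRNA, between the controls. Probe set 1419089_at read 989.2, 1064 and 874.0, and 1449334_at read 340.0, 381.4 and 268.8, both lowest on RetSat shRNA. The dimmest, 1419088_at, read 238.5, 183.0 and 195.0, and was the 1 Timp3 probe set that was higher on empty vector 1 than on empty vector 2. The log2 difference of the brightest from the control mean was -0.07 (SE 0.50, limma adjusted p = 1). It was 0.02 with arrays centred on their medians and -0.20 with the mean of the gene's probe sets.

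**Figure D2:**
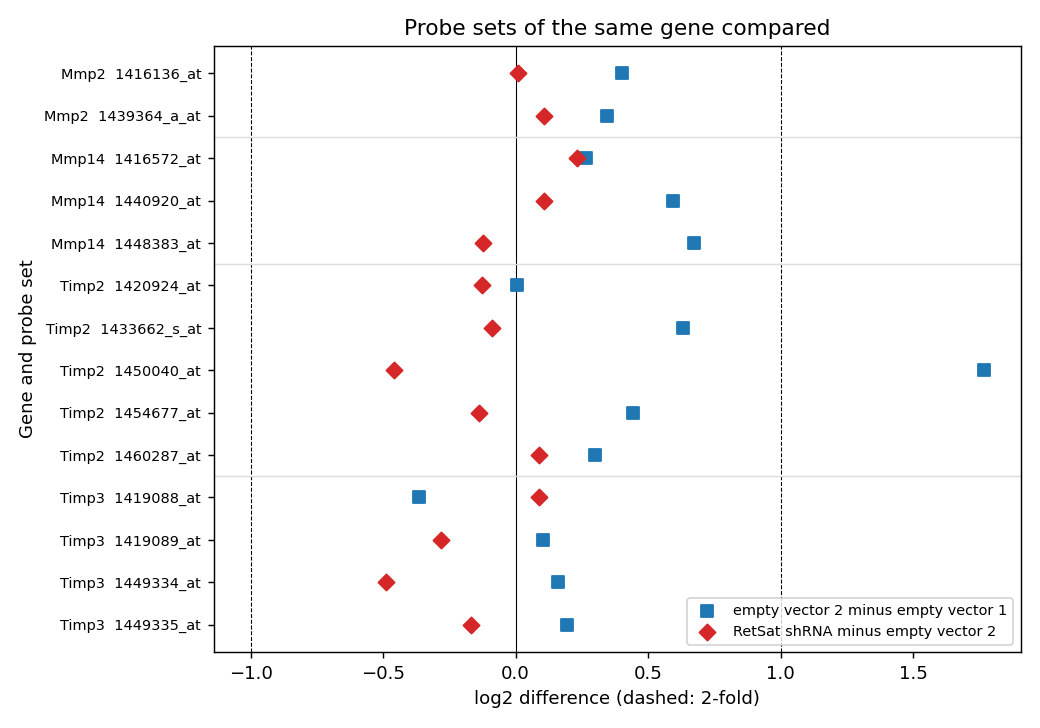
log2 differences of signal plus offset for the probe sets of Mmp2, Mmp14, Timp2 and Timp3 that reached the filter, with squares for empty vector 2 minus empty vector 1, diamonds for RetSat shRNA minus empty vector 2, and dashed lines at 2-fold. The squares of Timp2 run from 0.01 to 1.77, while every diamond lies between -0.49 and 0.23.

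Cathepsin K (Ctsk) read higher on RetSat shRNA than on both controls. By the smaller of the log2 differences from the controls it led the members, with 0.55 against 0.49 for Mmp9, whereas Mmp9 was farther from empty vector 1 and from the control mean. Its probe set read 209.6 on empty vector 1, 258.2 on empty vector 2 and 381.7 on RetSat shRNA, and the controls averaged 234 ± 34.4 (SD, n = 2). RetSat shRNA was the high array, at 1.82 times empty vector 1 and 1.48 times empty vector 2, compared with 1.23 between the controls. On the log2 scale these gaps were 0.83, 0.55 and 0.29. The difference from the control mean was 0.69 (SE 0.51, 95% interval -0.43 to 1.81), with an unadjusted p of 0.20 and an adjusted p of 1 in limma.

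By the smaller of its differences from the 2 controls, Ctsk ranked 172 among the 3732 tested genes that were above both. By the same measure it ranked 34 within its brightness class. That class of 2711 genes includes genes on any side of the controls, so the ranks have different bases. Overall and within their own classes, Mmp9 ranked 232 and 162, Timp2 2393 and 640, and Mmp2 3617 and 1193. In the class of Ctsk the SD of log2 differences was 0.291 between RetSat shRNA and empty vector 2 and 0.819 between the controls. Over the alternatives tried, the difference of Ctsk from empty vector 2 ran from 0.49 with an offset of 50 to 0.61 with median centring. Of these alternatives, only median centring and quantile normalization could have changed its sign. Ctsk has 1 probe set here, so no other probe set of the gene could be set beside it.

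None of the 7 tested members passed limma at an adjusted p of 0.05, and neither did any of the 10843 tested genes (0%). At an unadjusted p under 0.05 there were 0 members and 108 genes. With a robust variance prior limma called 7 genes and with median centring 1 gene, none of them a member. The fit has 1 residual degree of freedom, from the control arrays, and takes the lone RetSat shRNA array to vary as they do.

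By size, 0 of the 7 tested members were at least 2-fold higher or lower on RetSat shRNA than on both controls, a rule met by 10 genes on the higher side (0.0922%) and 54 on the lower side (0.498%), or 0.59% in all. The split of these genes was 20 higher and 41 lower with median centring, and 25 higher and 43 lower after quantile normalization. Against empty vector 1 alone 1 member, Mmp9, was past 2-fold, as were 13.6% of all tested genes. Against empty vector 2 alone no member was, compared with 1.73%, and between the controls no tested member was, compared with 12.7%. Mmp2, Mmp9, Timp2 and Ctsk lay above both controls (4 of 7, against 34.4% of all tested genes) and 0 of 7 lay below both (against 25.4%). The margin over empty vector 2 was 0.01 for Mmp2 and 0.09 for Timp2, and after quantile normalization these became -0.09 and -0.01.

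**Figure D3:**
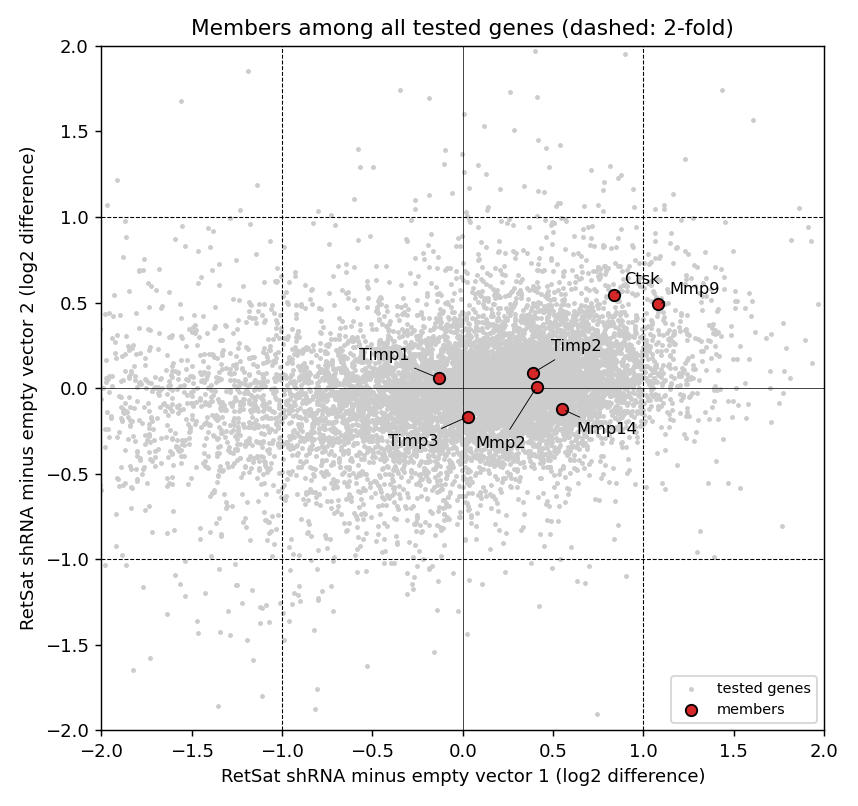
log2 difference of RetSat shRNA from empty vector 1 (horizontal) and from empty vector 2 (vertical) for all tested genes in grey and the 7 tested members in red, with dashed lines at 2-fold and 284 genes beyond the axes. Both axes share the RetSat shRNA array, and Ctsk and Mmp9 are the members set apart in the upper right, short of the 2-fold line against empty vector 2.

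The gap that most members shared was the one between the control arrays. Of the 7 tested members 6 were higher on empty vector 2 than on empty vector 1, all but Timp1, and 59.3% of all tested genes were. In the same 6, empty vector 1 also read lower than RetSat shRNA, and 52.6% of all tested genes had it as the lowest array. For Timp3 the difference of RetSat shRNA from it was 0.03, and it was -0.0024 after quantile normalization. The members' median log2 difference between the controls was 0.30, against 0.14 for all tested genes. Their median on RetSat shRNA was 0.41 from empty vector 1 (0.14 for all genes) and 0.06 from empty vector 2 (0 for all genes). Median centring raised the median difference of all genes from empty vector 1 by 0.11, to 0.25.

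Proteases were set against the inhibitors they meet by the difference between their log2 differences, which shows unequal change and not the level of either. For Mmp2 minus Timp2 this was 0.0212 with empty vector 1 as the control and -0.0809 with empty vector 2. For Mmp14 minus Timp2 it was 0.161 and -0.211, so the sign depended on the control. With the mean of each gene's probe sets these became 0.0608 and 0.0696 for Mmp2 minus Timp2 and 0.213 and 0.0843 for Mmp14 minus Timp2, so the signs also rested on the choice of probe set. Mmp2 minus Timp1 was 0.544 and -0.0506, and Mmp14 minus Timp3 was 0.523 and 0.0446. With the mean of probe sets these were 0.566 and -0.000742, and 0.773 and 0.285. For Ctsk minus Cst3, the gene of cystatin C, which inhibits cysteine cathepsins, it was 0.521 and 0.412, and 0.109 between the controls.

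Other genes of the pathway were read from lists of related proteases, inhibitors, regulators and substrates. No listed gene passed limma. By its brightest probe set no tested one was at least 2-fold from both controls on the scale of signal plus offset. By the same measure 2 listed genes under the filter were, A2m, an inhibitor of many proteases, at 9.2, 9.3 and 35.5, and the membrane-bound Mmp16 at 27.8, 46.5 and 7.6. Less bright probe sets of tested genes can differ. Above the filter, Adam17 1421859_at (209.7, 164.0 and 71.9) and Adam15 1425170_a_at (73.6, 53.1 and 14.7) were more than 2-fold lower than both controls. Of the 21 listed genes named by rule, 12 had another probe set above the filter, and in 7 of these another probe set lay on a different side of the controls, in 4 (Mmp24, Cd44, Adam19 and Ctsb) on the opposite side. Of 18 other MMP genes 13 had a probe set and 3 passed the filter. Mmp11, stromelysin 3, read 91.9 on empty vector 1, 161.1 on empty vector 2 and 152.5 on RetSat shRNA, between the controls. Mmp19 read 108.8, 101.7 and 97.2, and the membrane-bound Mmp24 read 43.7, 59.5 and 41.4, both lowest on RetSat shRNA. Another probe set of Mmp24, 1448806_at, was highest there, at 27.2, 43.4 and 63.1. Among 5 other inhibitors Reck, a membrane-anchored inhibitor of MMPs, was the 1 tested, at 241.8, 186.6 and 164.2. Timp4 was not tested: its probe set 1423405_at read 27.7, 28.1 and 24.7, and 1450974_at read 8.3, 6.9 and 67.0, above the median on RetSat shRNA alone. A2m, Mmp16, Timp4, Adam15 and Adam17 were named after their values were seen.

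The urokinase receptor gene Plaur read 311.7 on empty vector 1, 449.6 on empty vector 2 and 564.3 on RetSat shRNA, above both controls. The tissue plasminogen activator Plat, the other plasminogen system gene tested, read 537.4, 808.1 and 656.6, between them. Of 8 genes for activation and clearance, 6 were tested, with 2 above and 2 below both controls. The collagen receptor Ddr2 read 891.9, 762.4 and 665.4, Lrp1, which clears MMPs and TIMPs by endocytosis, read 2290 and 2327 against 2145, and the hyaluronan receptor Cd44 read 3787, 3984 and 4171. Other probe sets of Cd44 were lowest on RetSat shRNA, at 2869.5, 3016 and 2799 and at 971.1, 519.6 and 511.5.

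Of 7 other cathepsin genes tested, 4 lay above both controls and 1 below. The median of their log2 differences was 0.20 relative to empty vector 1 and 0.13 relative to empty vector 2. Cathepsin B (Ctsb) read 4587, 4385 and 5267, cathepsin Z (Ctsz) read 3146, 4426 and 4859, and Ctso read 173.9, 167.2 and 129.0. Other probe sets of Ctsb did not share its order, among them 1448732_at at 3103, 2543 and 2713 and 1417492_at at 138.8, 98.8 and 67.5. Both tested cystatins, Cst3 and Cstb, lay above both controls, with Cst3 at 9368, 10609 and 11641 and Cstb at 6279, 7415 and 8491.

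ADAM and ADAMTS genes went both ways, with 5 of 13 above and 5 below both controls. Adamts1, an aggrecan-cutting protease, read 459.7, 506.1 and 361.6. Adam19 read 404.6, 429.8 and 536.4 in its brightest probe set, but 125.6, 57.6 and 39.8 in 1418403_at, lowest on RetSat shRNA. Adamts4 read 111.7, 119.6 and 146.0. Of 12 matrix substrates tested 4 lay above and 4 below both controls, with median log2 differences of 0.02 and -0.04. Tenascin C (Tnc) read 1840.4 on empty vector 1, 938 on empty vector 2 and 717 on RetSat shRNA, the proteoglycan versican (Vcan) read 2778, 258.3 and 234.6, and fibronectin (Fn1) read 9537, 8405 and 7892. All 3 were lowest on RetSat shRNA and highest on empty vector 1, and for Vcan nearly all of the gap lay between the controls. The collagens Col1a1 (6803, 8929 and 9039.5) and Col4a1 (1506, 1946 and 2053) lay above both controls by their brightest probe sets.

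AP-1 and ETS factors act on inducible MMP promoters. Of 10 such genes tested, 6 lay above both controls (34.4% of all tested genes) and 1 below (25.4%), and 8 were higher on empty vector 2 than on empty vector 1 (59.3%). Jun is counted among the 6 with 2372.3 against 2372.2 on empty vector 2, which is a tie in practice. Fosl1 read 1992, 2599 and 2749.7, Jun read 1443, 2372.2 and 2372.3, and Jund read 554.5, 1386 and 1492 in the same array order. Other probe sets lay between the controls, 1417488_at of Fosl1 at 360.9, 281.5 and 326.2 and 1448694_at of Jun at 540.8, 864.5 and 750.2. By their brightest probe sets Fos (192.0, 139.9 and 174.3), Fosl2 and Etv5 also lay between the controls, and Ets1 (517.7, 685.2 and 514.4) lay below both. The log2 difference of Ets1 from empty vector 1 was only -0.009. Its probe sets 1426725_s_at (368.1, 439.2 and 538.8) and 1422028_a_at (52.1, 83.4 and 91.6) lay above both controls, and 1422027_a_at (118.2, 111.8 and 108.3) below both. Junb read 416.3, 626.0 and 743.8 and Ets2 read 941.5, 976.1 and 1063. Etv4 read 62.1, 18.1 and 129.2, under the median on empty vector 2, and was the listed gene with the smallest p in limma, with an adjusted p of 1. Mmp11, Plat, Fos, Fosl1, Fosl2, Jun, Jund, Ets1, Etv5, Col1a1 and Col4a1 were chosen after their values were seen.

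**Figure D4:**
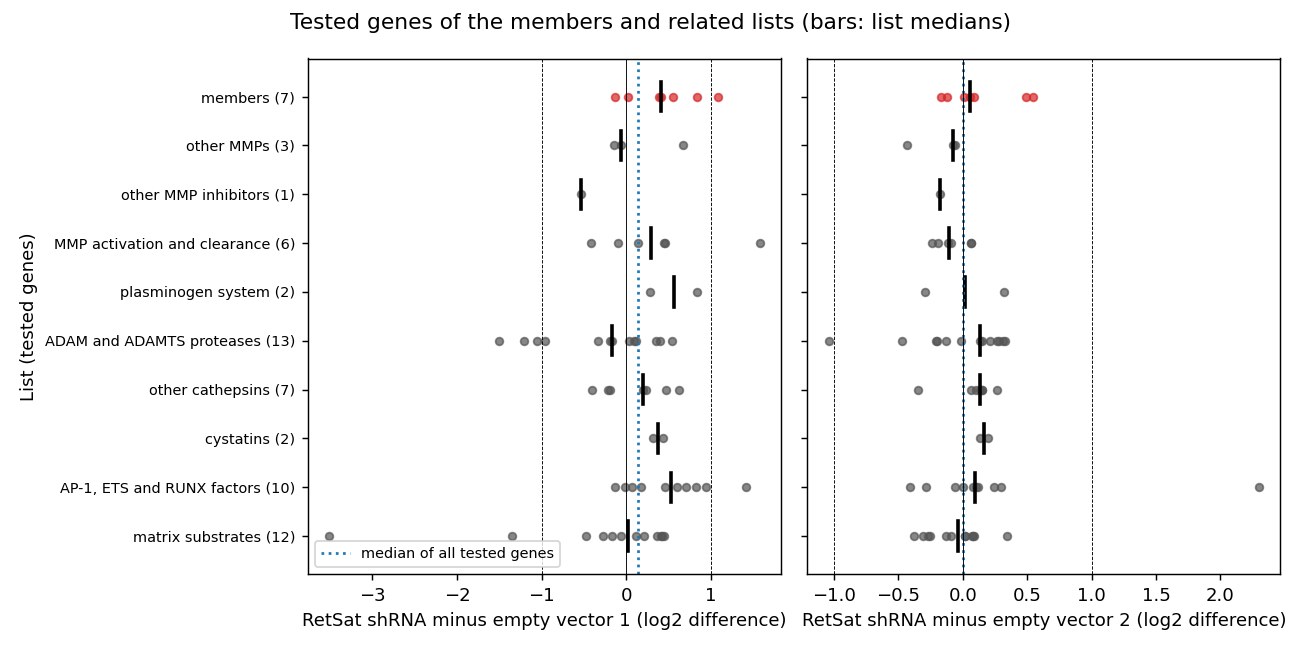
log2 differences of RetSat shRNA from empty vector 1 (left) and empty vector 2 (right) for the tested members (red) and the tested genes of each related list (grey, number in brackets), with bars at list medians, a dotted line at the median of all tested genes and dashed lines at 2-fold. Against empty vector 2 most genes lie inside the dashed lines, with Etv4 the far point at 2.30.

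Markers of other cells that make these proteases were read beside Ctsk and Mmp9. All 8 fibroblast markers, among them Vim, Thy1 and Col1a1, were above the array medians on all 3 arrays. Of 7 macrophage markers 3 (Cd14, Cd68 and Csf1r) were tested and 4 were dim on all arrays, with Itgam at 0.9, 1.2 and 1.3. Their summed signal was 833.1, 764.1 and 867.0. Cd14 alone gave 569.4, 479.9 and 614.7 of this, while Cd68 (142, 132.8 and 119.7) was lowest on RetSat shRNA. None of 6 osteoclast markers reached the filter, and their summed signal was 87.1, 116.8 and 105.3. That order rested on Acp5 (3.1, 65.3 and 10.4): without it, a choice made after seeing the data, the sums were 84.0, 51.5 and 94.9, highest on RetSat shRNA. Oscar (14.0, 21.1 and 40.3) and Calcr (18.7, 2.2 and 22.4) were above both controls, as Ctsk was. These were 2 of the 6. The share of 34.4% above both controls is over tested genes, and none of these markers was tested, so it is not a like background for them. Acp5, Dcstamp, Ocstamp and Atp6v0d2 lay between the controls. No marker read 0. Endothelial and epithelial markers summed to 51.6, 71.4 and 91.3 and to 189.9, 188.4 and 194.4. Kdr (37.3, 8.6 and 69.8) made up most of the endothelial sum on empty vector 1 and RetSat shRNA. The part of these other cells in the readings of Ctsk and Mmp9 was not tested.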

How the data were processed

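Probe set values of 3 single-colour arrays, 2 empty vector and 1 RetSat shRNA by their titles, were used as deposited. The deposited values are intensities on a linear scale from 0.1 to 30189.8, and the sources used here do not name the software that made them. The 2% trimmed mean of the deposited intensities was 250.0 on each array, so they were on a common scale. Of 45101 probe sets, 34945 had 1 symbol in the platform annotation, 932 several, 9160 none and 64 were array controls. No symbol changed when looked up by gene ID in RefSeq (GRCm38.p6).

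A gene was represented by its brightest probe set. An offset of 10.2 (25th percentile of all values) was added before log2, which understates changes of dim genes. Genes with mean log2 signal at or above the median over all probe sets were tested with limma 3.58.1 (R 4.3.3; lmFit, eBayes, two-sided, Benjamini-Hochberg over all 10843 genes, threshold 0.05). The fit was run on simulated data with the same spread for every gene and array. The real arrays did not have this, so the simulation says nothing of the fit's power here. A rule of size (at least 2-fold from both controls) stood beside it. Named are all members and, per list, up to 3 tested genes ranked by the smaller difference from the controls. Genes outside this rule are marked where they are named. Members and lists were chosen with earlier results of these data known. Alternatives were other offsets, filters and scalings, a robust prior, mean probe sets and each control left out. The number of arrays limits the precision.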

Additional observations from a re-analysis of the deposited data

How the results depend on the processing

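The number of tested genes at least 2-fold from both controls was 64. It became 110 with an offset of 1, 7 with an offset of 50, 800 without a filter on low signal and 1 with the 75th percentile filter. It was 188 without empty vector 1 and 1478 without empty vector 2. The members' count was 0 throughout, except 1 (Mmp9) without empty vector 2. Limma's count over all genes was 0 except for 1 with median centring and 7 with a robust prior. Differences of the tested members from the control mean kept their sign in 63 of 68 recalculations. Not all of these could have turned. The other filters and the robust prior leave the differences unchanged, as does the mean of probe sets for Timp1 and Ctsk, which have 1 each. The 5 that turned were Timp1 (0.0518) and Timp3 (0.0198) with median centring, which adds a constant to each array, Mmp14 (-0.12) and Timp1 (0.0584) without empty vector 1, and Timp3 (0.0275) without empty vector 2. Mmp9 could not be given a value with the 75th percentile filter or with the mean of its probe sets, since it then lay below the filter. A fit without 1 control leaves 1 array against 1, so it has values and no test. No paired analysis was possible because the groups share 1 number in their titles, that of empty vector 2 and RetSat shRNA, and its meaning is not given. Dim signals limit what can be said of Mmp3, Mmp9 and Mmp13.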

Other observations

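By a fixed cut, probe sets of the same gene disagreed about the control arrays in more genes than about RetSat shRNA and empty vector 2. Timp2 is one case. Of 5131 genes with at least 2 probe sets above the filter, the log2 difference between the controls differed by 1 or more among probe sets of 1401 genes (27.3%), compared with 539 (10.5%) for RetSat shRNA minus empty vector 2. The median range among probe sets was 0.614 and 0.361. The SD over all tested genes was also wider between the controls, at 0.739 against 0.336, and the cut takes no account of this. The examples that follow were chosen after their values were seen.

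For Adam10, a protease that sheds cell surface proteins, 1428103_at read 1285 on empty vector 1, 1269 on empty vector 2 and 1393 on RetSat shRNA, while 1450105_at read 330.6, 92.2 and 101.7. For Ddr2, 1422738_at read 891.9, 762.4 and 665.4 and 1455688_at read 893.6, 315.7 and 303.0. For Cd44, 1423760_at read 3787, 3984 and 4171 and 1452483_a_at read 971.1, 519.6 and 511.5. For fibronectin (Fn1), 1426642_at read 9537, 8405 and 7892 and 1437218_at read 1120.1, 412.1 and 326.9. In these 4 genes the second probe set was the one that set empty vector 1 apart, and it was higher there. In Timp2 and Ddr1 the discordant probe set was lower on empty vector 1, with 1456226_x_at of Ddr1 at 598.9, 1934.5 and 1810 and 1415797_at at 208.8, 257.4 and 278.8. Where these probe sets lie on their transcripts was not analysed here, and the cause was not tested.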
